A study of Mus musculus with 12 samples.

Results

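The genes of fatty acid synthesis and oxidation were followed in mouse embryonic stem (ES) cells treated with the mTOR kinase inhibitor INK128 (mTORi), which places ES cells in a dormant state. The group holds 36 genes, matched by symbol among the 54446 gene identifiers of the dataset: 13 for synthesis, elongation and desaturation, 20 for the carnitine shuttle and beta-oxidation, the regulator Ppara, and the lipid droplet genes Pnpla2 and Plin2. They were read in 12 libraries, 2 for each of 6 groups. KH cells, the wild-type line, and DNMT3ABKO cells, a knockout of Dnmt3a and Dnmt3b, the enzymes of de novo DNA methylation, were each collected untreated (0 h) and after 72 and 144 h of INK128. Both lines carry the name E14 in the labels, while the methods describe the wild type as KH2. By the methods both were grown on mitomycin-treated feeder cells, with trypsinisation and cell sorting before RNA extraction. Each genotype is represented by 1 line. No untreated culture of 72 or 144 h was analysed here, so the effect of the inhibitor and that of time in culture cannot be told apart. The reporting summary states that experiments were repeated and that the time points of a biological replicate were handled side by side. The labels number the replicates and name no culture, so p-values measure the spread between these libraries.

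Levels are TPM (transcript abundance per library, summing to 1000000), a measure that is scaled for transcript length and is a share of the RNA in a library. A fall or rise in TPM is therefore a change relative to other transcripts, and absolute RNA amounts were not measured by it. With levels scaled to added reference RNA (spike-ins), the paper reports globally lower transcription under mTORi in wild-type and Dnmt3a/b knockout cells. A rise in TPM can therefore go with unchanged or lower RNA per cell. Fold changes are differences of log2(TPM + 1) with their standard error (SE), and adjusted p-values are from limma, fitted to the 15727 genes whose mean over the libraries reached 1 TPM. Of the 36 members, 35 passed that minimum. Ppara, a nuclear receptor that induces oxidation genes in liver, did not, with 0.0382 to 0.497 TPM over the 12 libraries. A gene was called changed at an adjusted p under 0.05.

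Fatty acids are built in the cytosol. Acly and Acss2 make acetyl-CoA, the acetyl-CoA carboxylases Acaca and Acacb turn it into malonyl-CoA, and Fasn assembles palmitate with NADPH that Me1 helps to supply. Elongases then lengthen the chain and desaturases introduce double bonds, and the sterol regulatory element-binding proteins (SREBPs), whose activity depends on mTOR complex 1 in many cells, are the best known activators of these genes. In the opposite direction, Cpt1, Slc25a20 and Cpt2 carry acyl chains into mitochondria as carnitine esters. There the acyl-CoA dehydrogenases, hydratases and thiolases shorten them, and electrons leave through the electron transfer flavoprotein. Malonyl-CoA inhibits Cpt1, which links both directions.

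The desaturases Scd1 and Fads2 fell furthest in both lines, to 10.1% to 34.6% of their 0 h TPM in every treated group. Of the 13 synthesis members, 7 fell and 1, Elovl6, rose against 0 h at each time in each line (61.5%, beside 47.8% to 57.6% of all genes called in these comparisons). The 7 were not the same genes throughout, and Acaca, Scd1, Scd2, Fads1 and Fads2 were among them each time. Oxidation members were split: Cpt1a and Etfdh rose in both lines, while Acadl, Acadm, Acaa2 and Eci2 fell. The KH 72 h calls of Acadl, Acadm and Eci2 were lost in 1, 2 and 3 of 12 fits leaving out 1 library. From 72 to 144 h, 7 synthesis members rose in KH cells (53.8%, beside 22.9% of all genes called), of which only Scd2 was called in every fit that left out 1 library, and in DNMT3ABKO cells 1 rose and 3 fell (30.8%, beside 27.3%). In a contrast added after values were seen, the lines differed in that step for 3 of the 13, Scd2, Fads2 and Fasn (23.1%, beside 5.33%). Of these, only Scd2 was called in every fit that left out 1 library. Slc25a20, the carnitine carrier, stood at 224% of the KH mean TPM in the knockout at 144 h.

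In KH cells at 72 h against 0 h, 17 of the 35 members tested were called (4 higher and 13 lower), or 48.6%, beside 47.8% of all genes tested. The share of members called was thus near that of all genes. Of all genes 28.3% were called higher and 19.5% lower. At 144 h, 23 members were called (4 higher and 19 lower) beside 51.3% of all genes (27.4% higher and 23.9% lower). In DNMT3ABKO cells 22 members were called at 72 h (6 higher and 16 lower) beside 56.0% of all genes (34.3% higher and 21.6% lower). By 144 h the number was 24, of which 6 were higher and 18 lower, beside 57.6% (31.4% higher and 26.2% lower). The median fold change of the 13 synthesis members was -0.41 at 72 h and -0.52 at 144 h in KH and -0.44 and -0.38 in DNMT3ABKO cells. For the 20 oxidation members it was -0.01, -0.26, -0.10 and -0.26 in the same order, and for all genes tested 0.08, 0.05, 0.12 and 0.05. With each library scaled to its nuclear protein-coding genes, the KH calls at 72 h were 9 higher and 15 lower.

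**Figure D1:**
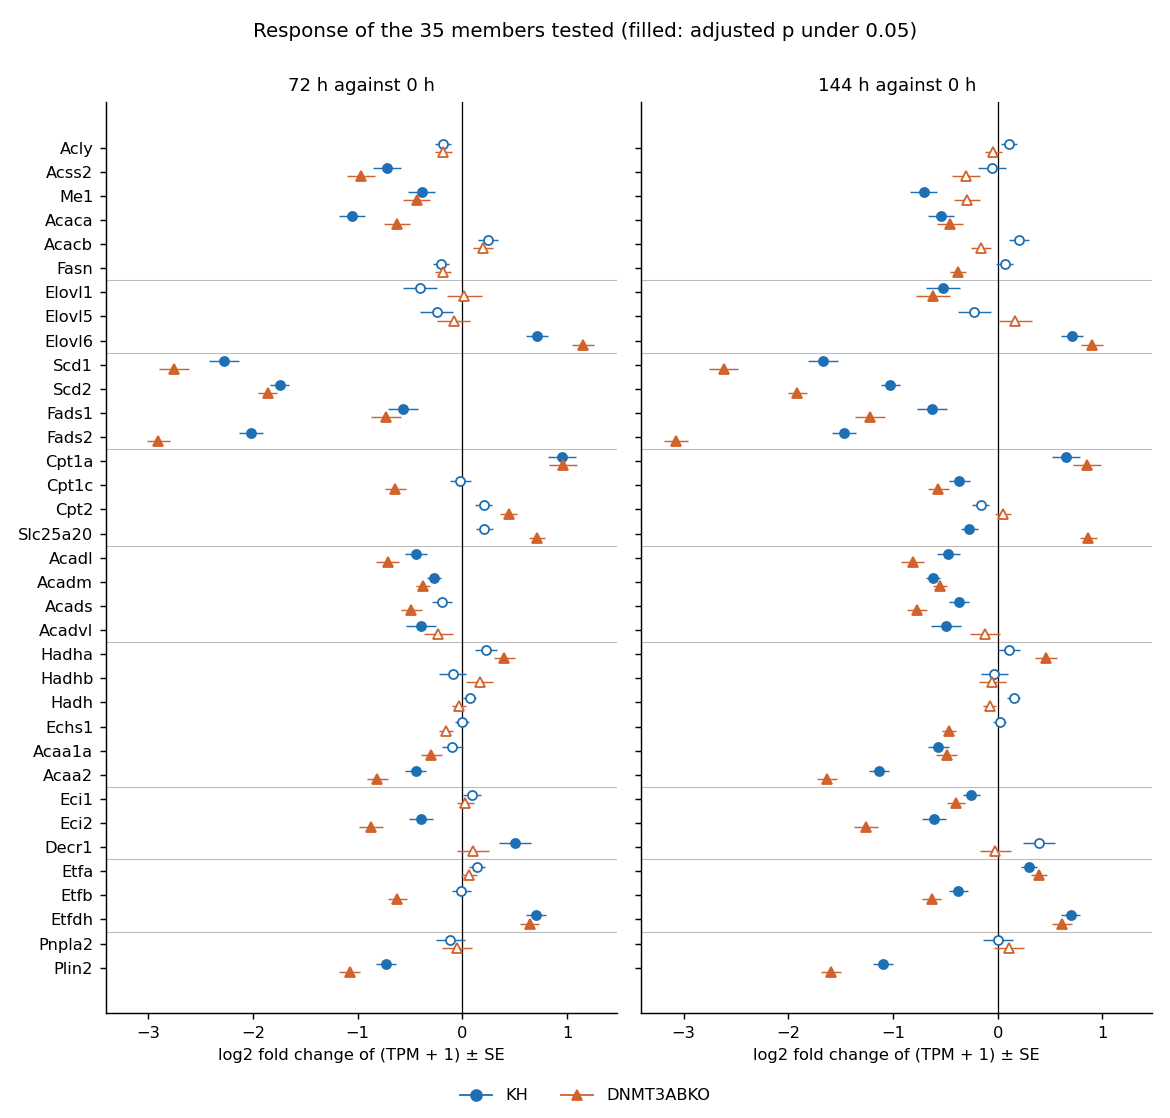
log2 fold change (TPM + 1) with its SE for the 35 members tested, at 72 h (left) and 144 h (right) against 0 h. Circles are KH cells and triangles DNMT3ABKO cells, 2 libraries per group. Filled symbols were called, and grey lines separate the role classes. Scd1 and Fads2 lie furthest left for each line in both panels, and Elovl6, Cpt1a and Etfdh lie right of 0 in both lines.

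The libraries also held RNA of genes used as markers of other cell types, and which cells it came from was not tested. The summed TPM of 26 fibroblast markers was 3444 to 4113 at 0 h, 1317 to 1686 at 72 h and 572 to 830 at 144 h. Col1a1 fell from at least 366 TPM at 0 h to at most 10.7 TPM in KH cells at 144 h, while Fn1 was still at 440 to 526 TPM there. For 13 macrophage markers the ranges were 309 to 392, 181 to 278 and 40.6 to 61.0 TPM. The 13 ES cell markers rose from a sum of 4854 to 5235 TPM at 0 h to 7080 to 7621 TPM in treated cells. Of 12 adipocyte markers 8 stayed below 1 TPM in every library, Adipoq among them, and Cfd was listed at 0. The other 4 were Lpl, Cebpa, Lipe and Car3. The sum over the 12 was 11.96 to 12.3 TPM in untreated and 9.45 to 10.1 TPM in 144 h KH libraries, and 11.8 to 13.5 and 19.99 to 21.7 TPM in DNMT3ABKO libraries. Cebpa, Lipe and Car3 rose in DNMT3ABKO cells at both times, and the 144 h response differed between the lines for Cebpa (1.57 ± 0.17) and Lipe (0.62 ± 0.12). Their part in the line differences was not tested. The fall of the fibroblast marker sum runs with time in both lines. Its part in the results was not tested, and fewer cells of a type cannot be told apart from less RNA per cell. Dnmt3b stood at 142 to 258 TPM in KH libraries and at 12.7 to 27.5 TPM in DNMT3ABKO libraries, and Dnmt3a at 54.7 to 144 and at 7.35 to 21.9 TPM.

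**Figure D2:**
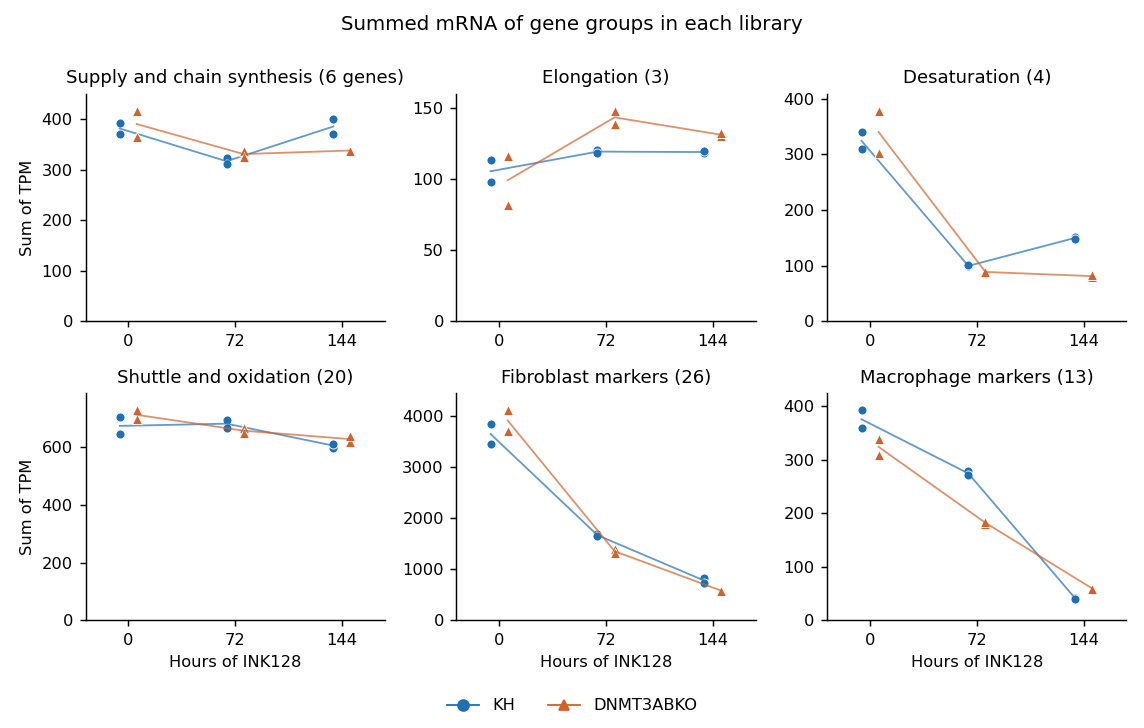
Sum of TPM over the genes of each group named above a panel, against hours of INK128. Each symbol is 1 library (circles, KH; triangles, DNMT3ABKO) and lines join the means of 2 libraries. Desaturase and fibroblast sums are both highest at 0 h. From 72 to 144 h the desaturase sum is higher at the later time in KH cells (98.7 and 100.2, then 151 and 148 TPM) and lower in DNMT3ABKO cells (89.4 and 87.8, then 79.7 and 82.3 TPM), and the fibroblast sum is lower in both.

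The promoters of a few members are shown because these genes moved in different directions: Fads2 fell furthest in the knockout, Plin2 fell in both lines, Cpt1a rose in both, and Slc25a20 moved in opposite directions in the 2 lines at 144 h. They are the 250 bases upstream of the RefSeq start site in GRCm38.p6, at chr19:10101504-10101753 (minus strand), chr4:86670060-86670309 (minus), chr19:3323051-3323300 (plus) and chr9:108661886-108662135 (plus), and capitals mark CCAAT, the core of the NF-Y site.
Fads2: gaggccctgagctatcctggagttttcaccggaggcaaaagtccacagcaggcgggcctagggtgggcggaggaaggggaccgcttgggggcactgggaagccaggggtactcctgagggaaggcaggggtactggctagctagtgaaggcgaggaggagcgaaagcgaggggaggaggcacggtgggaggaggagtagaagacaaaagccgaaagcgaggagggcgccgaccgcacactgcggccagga
Plin2: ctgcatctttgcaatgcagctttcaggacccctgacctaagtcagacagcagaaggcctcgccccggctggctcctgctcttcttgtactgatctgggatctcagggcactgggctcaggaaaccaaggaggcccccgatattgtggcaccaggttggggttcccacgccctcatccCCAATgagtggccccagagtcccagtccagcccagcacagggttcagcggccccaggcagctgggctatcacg
Cpt1a: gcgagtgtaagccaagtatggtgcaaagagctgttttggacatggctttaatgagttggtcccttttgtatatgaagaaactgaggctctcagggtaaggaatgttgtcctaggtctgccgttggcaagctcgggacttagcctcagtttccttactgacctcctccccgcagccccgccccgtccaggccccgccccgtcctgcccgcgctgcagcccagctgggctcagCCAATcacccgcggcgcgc
Slc25a20: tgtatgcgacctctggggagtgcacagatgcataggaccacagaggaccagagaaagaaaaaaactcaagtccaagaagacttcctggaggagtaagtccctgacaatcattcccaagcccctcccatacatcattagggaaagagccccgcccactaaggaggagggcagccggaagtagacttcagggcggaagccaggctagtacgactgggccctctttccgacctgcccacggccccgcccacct
CCAAT stands at -73 to -69 in Plin2 and at -19 to -15 in Cpt1a, counted from the start site, and these windows of Fads2 and Slc25a20 do not hold it on either strand. RefSeq windows from 250 bases before to 50 after the start were given for 31 of the 36 members, 33 windows in all. The desaturases Scd1, Scd2 and Fads1 had no window, so the counts below do not cover them. CCAAT or its complement was in 16 of the 33 (48.5%) and in 37.4% of 32851 windows of all genes. The sterol regulatory element core TCACNCCAC was in 0 of the 33 and in 1.24% of all windows, the E-box CACGTG in 2 (Plin2 and Elovl5, 6.06%) and in 7.15% of all, and the PPAR direct repeat (DR1) in 0 and in 0.0396%. Both strands were searched, and the only overlap of matches in a member was between CCAAT on opposite strands in Fasn. All other matches stood apart, and a missing match says only that these letters are not in the window.

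Of the 6 genes of supply and chain synthesis, Acss2, Me1 and Acaca fell at 72 h in each line, and Acly, Acss2, Acaca and Fasn rose from 72 to 144 h in KH cells. The KH call of Me1 at 72 h was lost in 3 of 12 fits that each left out 1 library (adjusted p = 0.20 without KH 0 h replicate 2), and its DNMT3ABKO call in 2 (adjusted p = 0.089 without DNMT3ABKO 72 h replicate 2). Acaca, the carboxylase that feeds malonyl-CoA to Fasn, had 35.2 and 37.5 TPM in KH cells at 0 h, 16.7 and 17.2 TPM at 72 h, and 27.1 and 22.6 TPM at 144 h. All treated libraries lay below the untreated ones, by -1.06 ± 0.12 (SE) at 72 h (adjusted p = 0.000107) and by -0.54 ± 0.12 at 144 h (adjusted p = 0.0047). In DNMT3ABKO cells Acaca had 27.8 and 35.9 TPM at 0 h, 20.9 and 19.3 TPM at 72 h and 21.7 and 23.9 TPM at 144 h. Those groups did not overlap either, with -0.63 ± 0.12 at 72 h and -0.45 ± 0.12 at 144 h, though the call at 144 h was lost in 2 of the 12 leave-out fits (adjusted p = 0.07 without DNMT3ABKO 144 h replicate 1). Acacb, whose malonyl-CoA acts at the mitochondrial surface, was not called over time in KH cells, and its share of the summed Acaca and Acacb TPM was 10.4% and 10.8% before treatment, 23.8% and 23.7% after 72 h and 15.9% and 18.5% after 144 h. In DNMT3ABKO cells the shares were 9.44% and 8.16%, 15.2% and 15.3%, and 11.1% and 9.58%.

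Acss2, which activates acetate, fell at 72 h in both lines and rose in both from 72 to 144 h. KH libraries had 4.38 and 4.93 TPM at 0 h, 2.11 and 2.79 TPM at 72 h and 4.78 and 4.13 TPM at 144 h, and DNMT3ABKO libraries 5.56 and 6.48, 2.34 and 2.83, and 4.44 and 4.91 TPM. The rise was 0.67 ± 0.13 in each line, and the KH call was lost in 2 of the 12 leave-out fits (adjusted p = 0.06 without KH 72 h replicate 1). Me1, the malic enzyme that yields NADPH, had 13.4 and 16.5 TPM in KH cells at 0 h, 10.9 and 11.4 TPM at 72 h and 8.90 and 8.54 TPM at 144 h, a fall of 0.71 ± 0.13 on the log2 scale (adjusted p = 0.00111). Acly and Fasn were not called against 0 h in KH cells. Acly ranged from 159 to 208 TPM over all 12 libraries. Fasn had 139 and 136 TPM in KH cells at 0 h, 123 and 115 TPM at 72 h and 153 and 135 TPM at 144 h. In DNMT3ABKO cells it had 135 and 145, 127 and 119, and 111 and 104 TPM, and there the fall at 144 h of 0.38 ± 0.08 passed the test.

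The elongases moved apart. Elovl6, which extends palmitate to stearate, had 38.7 and 42.3 TPM in KH cells at 0 h, 68.1 and 65.2 TPM at 72 h and 67.7 and 65.9 TPM at 144 h. In DNMT3ABKO cells the values were 33.5 and 43.6, 87.1 and 85.1, and 72.5 and 72.0 TPM. No treated library reached down to an untreated one. The rise was 0.71 ± 0.10 at both times in KH cells (adjusted p = 0.000444 and 0.000325) and 1.15 ± 0.10 and 0.90 ± 0.10 in DNMT3ABKO cells. Elovl1, an elongase of very long chains, had 16 and 19.0 TPM in KH cells at 0 h and 10.7 and 13.1 TPM at 144 h (-0.52 ± 0.16), and 13.5 and 19.5 TPM in DNMT3ABKO cells at 0 h and 10.1 and 10.4 TPM at 144 h (-0.62 ± 0.16). The KH call was lost in 2 of the 12 leave-out fits (adjusted p = 0.15 without KH 144 h replicate 1). Elovl5, which acts on polyunsaturated chains, was called in no comparison and ranged from 35.2 to 53.3 TPM.

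The desaturases Scd1 and Scd2 make oleate and palmitoleate, while Fads1 and Fads2 are the delta-5 and delta-6 desaturases of the polyunsaturated pathway. All 4 genes lie on chromosome 19 (mm10), Scd2 at chr19:44293676-44306864 and Scd1 at chr19:44394451-44407709, and Fads2 at chr19:10064164-10101503 beside Fads1 at chr19:10182888-10196870. Scd1 and Scd2 are close paralogs, so how reads in shared stretches were divided could affect their values.

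Scd2 was the most abundant member in untreated KH cells, with 209 and 228 TPM. It had 64.7 and 64.2 TPM at 72 h and 109 and 105 TPM at 144 h in KH cells. The knockout libraries had 210 and 259 TPM at 0 h, 64.1 and 63.1 TPM at 72 h and 60.5 and 62.1 TPM at 144 h. Both lines thus fell to the same range at 72 h, and at 144 h every KH library stood above every knockout library. The fold changes were -1.74 ± 0.09 and -1.03 ± 0.09 in KH cells (adjusted p = 9.08e-07 and 1.09e-05) and -1.86 ± 0.09 and -1.91 ± 0.09 in DNMT3ABKO cells (adjusted p = 2.55e-07 and 7.24e-08).

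Fads2 had 38.5 and 41.2 TPM in KH cells at 0 h, 8.09 and 10.2 TPM at 72 h, and 13.8 TPM in both libraries at 144 h. In DNMT3ABKO cells it had 44.9 and 51.0 TPM at 0 h, 5.72 and 5.35 TPM at 72 h and 4.48 and 5.18 TPM at 144 h. The knockout libraries started above the KH libraries, a difference that was not called, and stood below them at both treated times. The fold changes were -2.02 ± 0.11 and -1.47 ± 0.11 in KH and -2.90 ± 0.11 and -3.07 ± 0.11 in DNMT3ABKO cells (adjusted p = 8.6e-08 and 1.65e-08).

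Scd1 had 34.9 and 38.7 TPM in KH cells at 0 h, 6.51 and 7.06 TPM at 72 h and 11.3 and 10.4 TPM at 144 h. The knockout libraries had 24.4 and 35.05 TPM at 0 h, 3.52 and 3.45 TPM at 72 h and 3.88 and 3.98 TPM at 144 h. The untreated knockout libraries were the most variable, and no treated library of either line overlapped an untreated one. The fold changes were -2.28 ± 0.14 and -1.67 ± 0.14 in KH and -2.75 ± 0.14 and -2.62 ± 0.14 in DNMT3ABKO cells. Scd1 made up 14.3% and 14.5% of the summed Scd1 and Scd2 TPM in untreated KH cells and 9.0% to 9.9% after treatment, and in DNMT3ABKO cells 10.4% and 11.9% before and 5.2% to 6.0% after.

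Fads1 changed less than its neighbour, by -0.57 ± 0.14 and -0.62 ± 0.14 in KH and -0.73 ± 0.14 and -1.22 ± 0.14 in DNMT3ABKO cells. Its levels were 26.4 and 31.5 TPM in untreated KH cells and 17.6 and 19.1 TPM at 144 h, and 22.5 and 32.4 TPM in untreated DNMT3ABKO cells and 10.9 and 11.1 TPM at 144 h. The KH call at 72 h was lost without KH 0 h replicate 2 (adjusted p = 0.07). The share of Fads2 in the summed Fads1 and Fads2 TPM was 56.7% to 66.6% in untreated libraries and 25.2% to 43.9% in treated ones, and the ranges did not overlap.

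**Figure D3:**
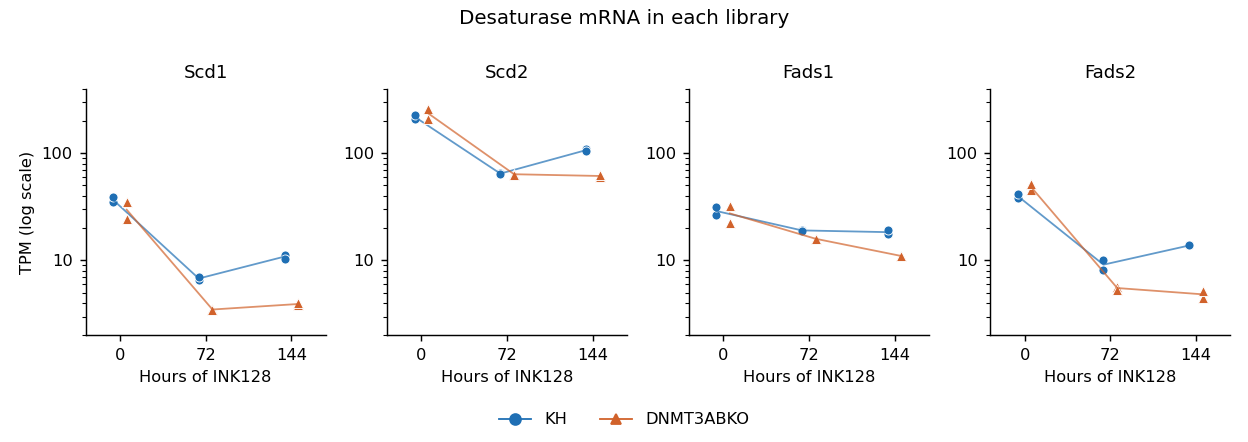
TPM on a log axis of the desaturases Scd1, Scd2, Fads1 and Fads2 against hours of INK128. Each symbol is 1 library (circles, KH; triangles, DNMT3ABKO) and lines join the means of 2 libraries. Scd1, Scd2 and Fads2 rise from 72 to 144 h in KH cells, for example from 64.5 to 107 TPM for Scd2, and stay near their 72 h level in DNMT3ABKO cells.

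In KH cells the calls between 72 and 144 h were higher for synthesis members and lower for oxidation members and Plin2, while 6 of the 13 and 12 of the 20 were not called. Of all genes, 22.9% were called in that step, 7.24% higher and 15.6% lower, and of the members 16 were called, 7 higher and 9 lower. The 7 higher were Acly, Acss2, Acaca, Fasn, Scd1, Scd2 and Fads2, by 0.27 to 0.72 on the log2 scale, and all belong to the 13 synthesis members. The 9 lower were Plin2 and 8 of the 20 oxidation members, Cpt1c, Cpt2, Slc25a20, Acadm, Acaa1a, Acaa2, Eci1 and Etfb. Only Scd2, Slc25a20, Acadm and Acaa2 were called in each of the 12 fits that left out 1 library, and 4 members were called without KH 72 h replicate 1, 7 without KH 144 h replicate 1 and 10 without KH 144 h replicate 2. In DNMT3ABKO cells 11 members were called in the same step, 2 higher (Acss2 and Etfa) and 9 lower, beside 27.3% of all genes (8.81% higher and 18.5% lower). With median-ratio scaling these were 4 higher and 9 lower.

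In the carnitine shuttle Cpt1a rose in both lines and Slc25a20 moved in opposite directions at 144 h. Cpt1a, the carnitine acyltransferase of the outer mitochondrial membrane and the controlled step of entry, had 13.7 and 16 TPM in KH cells at 0 h, 30.0 and 29.1 TPM at 72 h and 24.2 and 23.5 TPM at 144 h. In DNMT3ABKO cells the values were 12.1 and 17.2, 29.4 and 28.5, and 26.5 and 27.1 TPM. All 8 treated libraries stood above all 4 untreated ones. The rise was 0.95 ± 0.13 and 0.65 ± 0.13 in KH cells (adjusted p = 0.000311 and 0.00236) and 0.96 ± 0.13 and 0.85 ± 0.13 in DNMT3ABKO cells (adjusted p = 0.000196 and 0.000351). Cpt1c, a form best known from neurons, was at 14.8 and 17.2 TPM in untreated KH cells, 16.1 and 15.4 TPM at 72 h and 11.2 and 13.2 TPM at 144 h, and in DNMT3ABKO cells at 16.4 and 17.7, 10.2 and 10.9, and 11.3 and 11.1 TPM. It fell in the knockout at both times, by 0.64 ± 0.10 and 0.57 ± 0.10 on the log2 scale, and in KH cells at 144 h by 0.37 ± 0.10, a call lost in 2 of the 12 leave-out fits (adjusted p = 0.11 without KH 144 h replicate 1).

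Slc25a20, the translocase that exchanges acylcarnitine for carnitine across the inner membrane, had 23.9 and 26.2 TPM in KH cells at 0 h, 28.6 and 29.5 TPM at 72 h and 19.9 and 21.3 TPM at 144 h. In DNMT3ABKO cells it had 23.3 and 26.3 TPM at 0 h, 41.4 and 41.1 TPM at 72 h and 45.6 and 46.4 TPM at 144 h. The lines overlapped before treatment and were apart at both later times. The knockout change was 0.71 ± 0.08 at 72 h and 0.87 ± 0.08 at 144 h (adjusted p = 4.89e-05 and 8.71e-06). The KH change was -0.27 ± 0.08 at 144 h (adjusted p = 0.0162), a call lost in 2 of the 12 leave-out fits (adjusted p = 0.11 without KH 144 h replicate 1). Cpt2, which releases the acyl group inside mitochondria, ranged from 6.50 to 10.4 TPM and rose only in DNMT3ABKO cells at 72 h among the responses from 0 h (0.44 ± 0.08). That difference from KH cells was 0.24 ± 0.11 and did not pass the test (adjusted p = 0.30).

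The acyl-CoA dehydrogenases, which open each round of oxidation on chains of a given length, fell at 144 h in both lines for 3 of the 4 genes, Acadm, Acadl and Acads. Acadm, for medium chains, had 71.6 and 79.7 TPM in KH cells at 0 h, 63.5 and 61.5 TPM at 72 h and 47.9 and 49.8 TPM at 144 h. The knockout libraries had 72.0 and 74.4, 56.1 and 56.2, and 49.5 and 50.1 TPM. Levels stepped down in both lines with no overlap, by -0.62 ± 0.07 and -0.55 ± 0.07 at 144 h. The knockout step from 72 to 144 h was not called. The KH call at 72 h was lost in 2 of the 12 leave-out fits. Acadl, for long chains, had 17.2 and 19.9 TPM in untreated KH cells and 13.9 and 12.3 TPM at 144 h, and 19.3 and 22.7 TPM in untreated DNMT3ABKO cells and 10.8 and 12.2 TPM at 144 h. Acads, for short chains, had 24.6 and 24.3 TPM in untreated KH cells and 18.6 and 18.8 TPM at 144 h, and 31.9 and 29.9 TPM in untreated DNMT3ABKO cells and 19.1 and 16.3 TPM at 144 h, a change of -0.77 ± 0.10. The KH change of Acads was -0.37 ± 0.10 and lost its call without KH 144 h replicate 1 (adjusted p = 0.054). Acadvl, for very long chains, fell in KH cells from 18.1 and 21.4 TPM to 13.4 and 14 TPM at 144 h, a call lost in 2 of the 12 leave-out fits (adjusted p = 0.10 without KH 0 h replicate 2). In DNMT3ABKO cells it was at 26.3 and 21.1 TPM before and 23.6 and 19.7 TPM at 144 h and was not called.

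The later enzymes of the spiral differed among themselves. Acaa2, a mitochondrial thiolase, had 18.5 and 21.4 TPM in KH cells at 0 h, 15.4 and 13.4 TPM at 72 h and 8.61 and 8.46 TPM at 144 h. In DNMT3ABKO cells it had 24.4 and 26.9, 13.7 and 14.7, and 7.72 and 7.48 TPM. It was lower at each later time in every library of both lines, and the change at 144 h was -1.13 ± 0.10 and -1.63 ± 0.10 (adjusted p = 1.04e-05 and 4.52e-07). Acaa1a, the peroxisomal thiolase, whose close paralog Acaa1b could share its reads, had 31.0 and 30.6 TPM in untreated KH cells and 22.0 and 19.0 TPM at 144 h, and 27.0 and 24.5 TPM in untreated DNMT3ABKO cells and 18.9 and 17.2 TPM at 144 h. Hadha and Hadhb encode the subunits of the trifunctional protein. Hadha rose only in DNMT3ABKO cells, from 48.9 and 60.5 TPM to 71.1 and 79.4 TPM at 144 h (0.46 ± 0.10), and the difference from KH cells was 0.35 ± 0.15 (adjusted p = 0.19). Hadhb, from 34.9 to 48.7 TPM, was called in no comparison.

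Echs1, the short-chain enoyl-CoA hydratase, had 42.6 and 43.3 TPM in KH cells at 0 h, 44.0 and 41.9 TPM at 72 h and 41.9 and 45.4 TPM at 144 h. The knockout libraries had 40.5 and 40.3, 35.6 and 36.5, and 29.2 and 28.8 TPM. KH libraries overlapped at all times, whereas knockout libraries stepped down (-0.46 ± 0.06 at 144 h, adjusted p = 0.000165). The knockout change at 72 h was not called. Eci2, an isomerase needed for unsaturated chains, had 21.6 and 26.8 TPM in untreated KH cells, 17.7 and 18.5 TPM at 72 h and 15.4 and 15.5 TPM at 144 h, and in DNMT3ABKO cells 21.2 and 22.7, 12.3 and 10.7, and 7.93 and 9.24 TPM. It fell in both lines at 144 h, by 0.61 ± 0.11 and 1.26 ± 0.11 on the log2 scale. Eci1, its mitochondrial relative, had 29.5 and 32.3 TPM in untreated KH cells and 25.6 and 26 TPM at 144 h, and 26 and 27.9 TPM in untreated DNMT3ABKO cells and 18.9 and 21.6 TPM at 144 h. The changes were -0.25 and -0.40, and the KH call was lost in 3 of the 12 leave-out fits (adjusted p = 0.17 without KH 0 h replicate 2).

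Of the electron transfer flavoproteins, Etfdh, the oxidoreductase that passes electrons to ubiquinone, had 12.7 and 15.2 TPM in KH cells at 0 h, 22.9 and 23.5 TPM at 72 h and 23.4 and 22.9 TPM at 144 h. In DNMT3ABKO cells it had 14.8 and 16.6, 25.3 and 24.8, and 24.3 and 24.8 TPM. All 8 treated libraries stood above the untreated ones, by 0.70 ± 0.09 at both times in KH cells and by 0.64 ± 0.09 and 0.61 ± 0.09 in DNMT3ABKO cells. Its partner subunit genes went different ways. Etfb had 95.9 and 101 TPM in KH cells at 0 h, 103 and 93.1 TPM at 72 h and 75.9 and 75.5 TPM at 144 h, and in DNMT3ABKO cells 140.01 and 118, 87.3 and 79.7, and 79.9 and 86.2 TPM. Etfb fell at 144 h by 0.38 ± 0.09 and 0.63 ± 0.09 on the log2 scale. Etfa rose at 144 h, by 0.30 ± 0.08 in KH cells, a call lost in 2 of the 12 leave-out fits (adjusted p = 0.07 without KH 144 h replicate 2), and by 0.39 ± 0.08 in DNMT3ABKO cells.

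**Figure D4:**
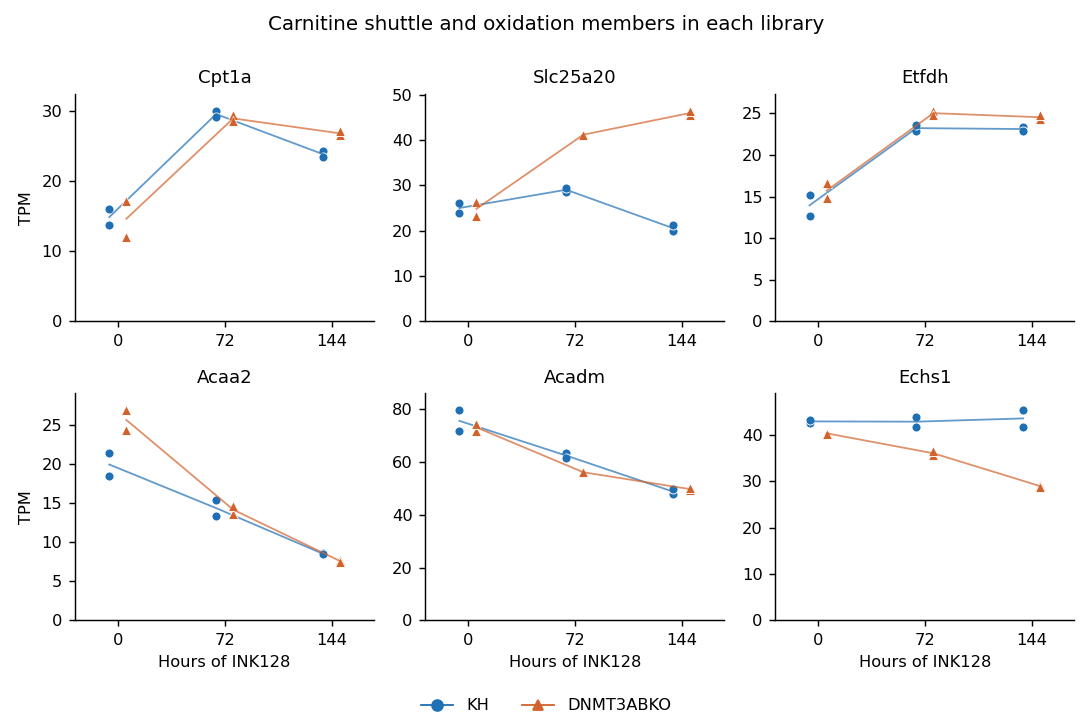
TPM of 6 carnitine shuttle and oxidation members against hours of INK128. Each symbol is 1 library (circles, KH; triangles, DNMT3ABKO) and lines join the means of 2 libraries. Cpt1a and Etfdh are higher in all treated libraries, Acaa2 and Acadm are lower, and Slc25a20 and Echs1 separate the lines at 144 h.

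Plin2, which coats lipid droplets, had 33.3 and 39.2 TPM in KH cells at 0 h, 21.2 and 21.5 TPM at 72 h and 15.7 and 17.1 TPM at 144 h. The knockout libraries had 31.9 and 34, 15.8 and 14.4, and 9.71 and 10.8 TPM. Each step down in each line was called, and the change at 144 h was -1.09 ± 0.10 and -1.59 ± 0.10 (adjusted p = 1.15e-05 and 4.59e-07). Among these steps only the KH step from 72 to 144 h lost its call with 1 library left out, in 4 of 12 fits (adjusted p = 0.15 without KH 144 h replicate 1). Pnpla2, the lipase that starts triglyceride breakdown, was called in no response to INK128. It ranged from 12.5 to 17.9 TPM in KH libraries and from 18.7 to 22.8 TPM in DNMT3ABKO libraries. Between the lines it was called at 72 h (0.51) and 144 h (0.56) and not at 0 h. Each of these calls was lost in 4 of 12 leave-out fits.

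The lines were compared at each time and in their responses. Untreated, they differed in 2 members, Etfb (0.38 ± 0.09) and Acacb (-0.40 ± 0.09), beside 9.06% of all genes (4.92% higher and 4.14% lower). Neither was called with the replicate number as a block (0 calls) or in all 12 leave-out fits, and without DNMT3ABKO 0 h replicate 2 there were 10 calls. At 72 h, 12 members differed (3 higher and 9 lower in the knockout) beside 19.3% of all genes (9.26% higher and 10% lower), and with median-ratio scaling the split was 5 higher and 9 lower. Slc25a20 (higher) and Cpt1c, Scd1 and Fads2 (lower) held in all 12 leave-out fits, and 5 to 7 members were called without any 1 of the 72 h libraries. At 144 h, 17 members differed (5 higher and 12 lower) beside 26.5% of all genes (11% higher and 15.5% lower). Of these, Slc25a20 (higher) and Fads1, Eci2, Fads2, Fasn, Scd2, Echs1, Plin2, Scd1 and Acacb (lower) held in all 12 leave-out fits. All 4 desaturases were lower in the knockout at 144 h, at 35% (Fads2), 36.2% (Scd1), 57.4% (Scd2) and 59.9% (Fads1) of the KH mean TPM.

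At 144 h the response itself differed between the lines for 7 members, beside 8.59% of all genes (4.89% higher and 3.70% lower): Fads2 (-1.61 ± 0.16, adjusted p = 0.000119), Scd1 (-0.95 ± 0.20, adjusted p = 0.0169), Scd2 (-0.89 ± 0.13, adjusted p = 0.00184), Eci2 (-0.65 ± 0.16, adjusted p = 0.0345), Echs1 (-0.48 ± 0.09, adjusted p = 0.00916), Fasn (-0.45 ± 0.11, adjusted p = 0.035) and Slc25a20 (1.14 ± 0.11, adjusted p = 0.000104). Negative values mean that the change in the knockout was the lower one. For Fasn and Echs1 the KH means at 144 h were 105% and 101% of those at 0 h. Fads2, Scd2, Echs1 and Slc25a20 held in all 12 leave-out fits, whereas Scd1 was lost in 4 (adjusted p = 0.07 without KH 144 h replicate 1), Eci2 in 6 (0.13 without DNMT3ABKO 144 h replicate 1) and Fasn in 9 (0.14 without KH 144 h replicate 1). With the replicate block the calls were 5, without Eci2 and Fasn. With either DNMT3ABKO library at 0 h left out, 11 and 14 members were called, without replicate 1 and replicate 2 respectively, and there were 4 without KH 0 h replicate 1, KH 144 h replicate 1 or DNMT3ABKO 144 h replicate 1. At 72 h the response differed for 4 members, Fads2 (-0.89 ± 0.16), Cpt1c (-0.62 ± 0.14), Etfb (-0.61 ± 0.13) and Slc25a20 (0.50 ± 0.11), beside 5.23% of all genes (3.38% higher and 1.86% lower). With the replicate number as a block, 1 of them, Fads2, was called, and with only the groups compared in the fit there was 1 call too. None of those 4 held in all 12 leave-out fits, with 0 calls without DNMT3ABKO 72 h replicate 2 and 9 without DNMT3ABKO 0 h replicate 2.

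The later step was compared between the lines after both had been seen, in a contrast of treated groups whose spread is shared with the untreated ones. Here 4 members differed beside 5.33% of all genes (3.08% higher and 2.25% lower): Scd2 (-0.77 ± 0.13, adjusted p = 0.00595), Fads2 (-0.72 ± 0.16, adjusted p = 0.0306), Fasn (-0.47 ± 0.11, adjusted p = 0.041) and Slc25a20 (0.63 ± 0.11, adjusted p = 0.00854). Scd2 alone of them held in all 12 leave-out fits, and 2 members were called in each fit without any 1 of 7 of the 8 treated libraries (all but KH 144 h replicate 2), beside 8 without either untreated DNMT3ABKO library, and 11 were called with the treated groups alone in the fit. With the replicate block 3 were called, without Fasn. The fibroblast markers summed to 728 to 830 TPM in KH and 572 to 589 TPM in DNMT3ABKO cells at 144 h, and the macrophage markers to 40.6 to 41.8 and 58.1 to 61.0 TPM. Their part in these differences was not tested.

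**Figure D5:**
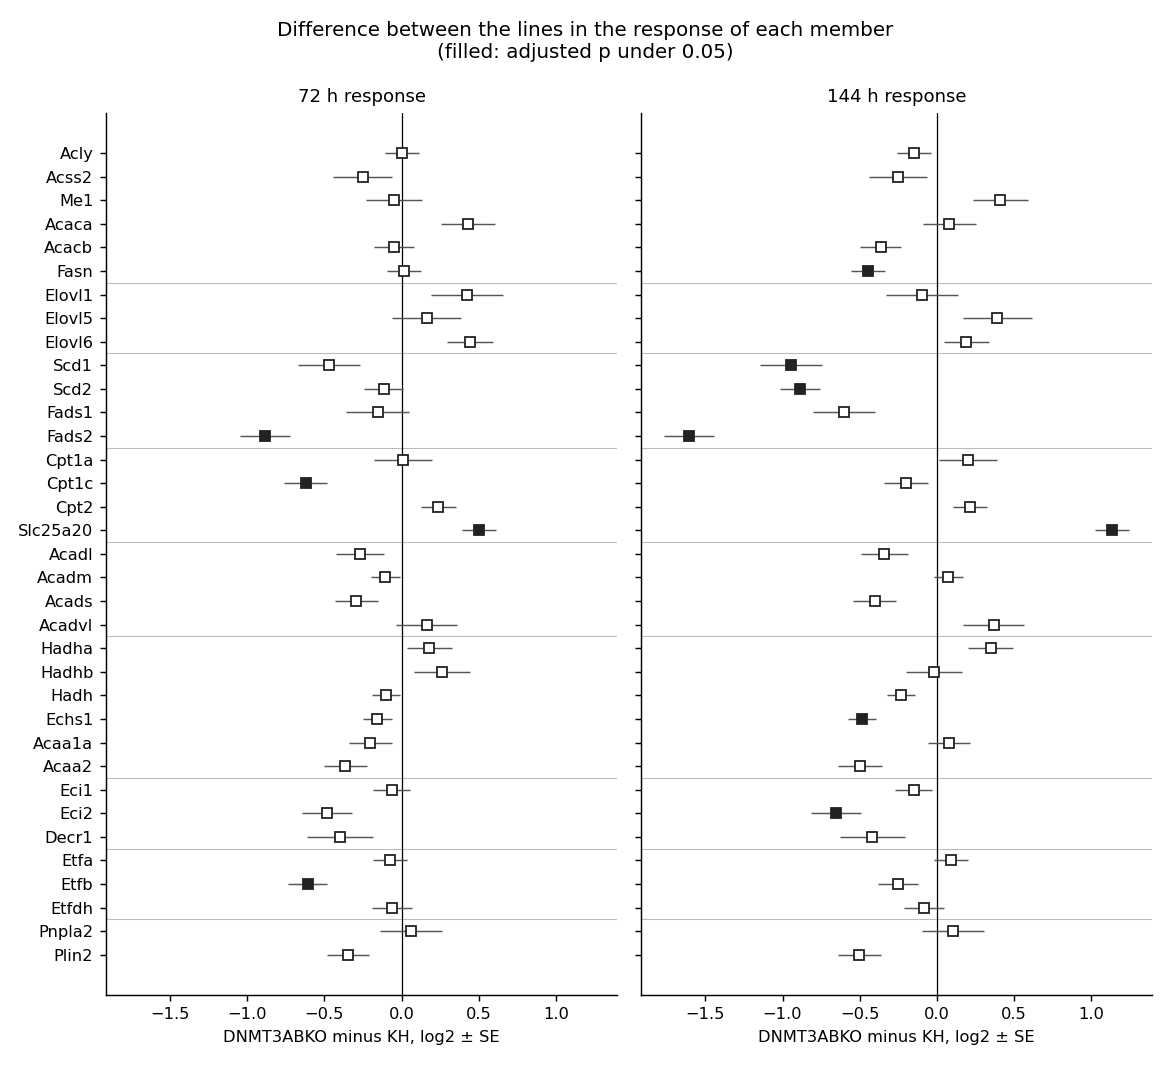
Difference between the lines in the log2 response of each member (DNMT3ABKO minus KH, with its SE) at 72 h (left) and 144 h (right). Filled squares were called. At 144 h Fads2, Scd1 and Scd2 lie furthest left and Slc25a20 furthest right.

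Genes that control these pathways are described from lists chosen beside the members. Of 13 tested genes of SREBP, LXR and ChREBP control, 3 rose and 5 fell in KH cells and 3 rose and 7 fell in DNMT3ABKO cells, at 72 h and at 144 h alike (61.5% and 76.9%, beside 47.8% and 51.3% of all genes in KH and 56.0% and 57.6% in DNMT3ABKO cells). Srebf1, which encodes the SREBP of fatty acid genes, had 23.4 and 25.4 TPM in untreated KH cells, 16.6 and 15.0 TPM at 72 h and 14.6 and 16.6 TPM at 144 h. The knockout libraries had 27.2 and 24.6, 10.8 and 11.7, and 11.4 and 10.04 TPM, and the response at 144 h differed between the lines by -0.59 ± 0.14 (adjusted p = 0.033). Mlxipl, which encodes the glucose-responsive factor ChREBP, rose from 1.40 and 1.49 TPM to 3.46 and 2.93 TPM at 72 h in KH cells and from 1.93 and 2.51 TPM to 7.82 and 7.13 TPM in DNMT3ABKO cells. Mid1ip1, which aids the polymerisation of acetyl-CoA carboxylase, fell in both lines at both times, by 0.73 ± 0.08 and 1.02 ± 0.08 on the log2 scale at 144 h.

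Further lists gave the following counts at 144 h against 0 h, KH cells first, where 51.3% and 57.6% of all genes were called. Of 17 tested genes of further elongation, desaturation and activation, 3 rose and 6 fell (52.9%), and 5 rose and 7 fell (70.6%). Fads3, which stands next to Fads2, had 11.4 and 13.5 TPM in untreated KH cells and 0.935 and 1.17 TPM at 144 h, and 12.3 and 12.2 TPM in untreated DNMT3ABKO cells and 1.05 and 0.726 TPM at 144 h, while the fibroblast marker sum fell as well. The part of feeder RNA in it was not tested. Elovl4, an elongase of very long chains, had 3.62 and 2.80 TPM in untreated KH cells and 6.57 and 7.23 TPM at 144 h, and 1.84 and 2.74 TPM in untreated DNMT3ABKO cells and 9.30 and 10.2 TPM at 144 h. Scd3, a paralog that could share reads with Scd1 and Scd2, fell in KH cells (-0.43 ± 0.12) and rose in DNMT3ABKO cells from 1.60 and 1.19 TPM to 3.41 and 3.44 TPM (0.89 ± 0.12), and the responses differed by 1.32 ± 0.18 (adjusted p = 0.00107). Acsl4, which activates arachidonate, fell by 1.01 ± 0.13 and 1.22 ± 0.13 on the log2 scale.

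Of 7 tested genes of mitochondrial fatty acid synthesis, 0 rose and 2 fell in KH cells at 144 h (28.6%, beside 51.3% of all genes), and 1 rose and 6 fell in DNMT3ABKO cells, which is all 7 (beside 57.6%). Peroxisomal oxidation had 1 higher and 7 lower of 14 in KH cells, and 1 higher and 6 lower in the knockout (57.1% and 50%). Further mitochondrial oxidation had 3 higher and 2 lower of 12, and 4 and 1 (41.7% in each line), and Acot1, a cytosolic acyl-CoA thioesterase, rose by 1.13 ± 0.10 and 0.95 ± 0.10. Of 9 tested PPAR regulators and targets, 1 rose and 7 fell in KH cells and 2 rose and 4 fell in DNMT3ABKO cells (88.9% and 66.7%). Among these, Vldlr, a lipoprotein receptor, fell from 2.91 and 3.45 TPM to 0.505 and 0.557 TPM in KH cells and from 3.36 and 3.08 TPM to 0.347 and 0.353 TPM in DNMT3ABKO cells. Of 21 tested genes of lipid droplets, esterification and lipolysis, 4 rose and 12 fell in KH cells, and 4 rose and 11 fell in DNMT3ABKO cells (76.2% and 71.4%). Mgll, which cleaves monoglycerides, had 16.2 and 18.2 TPM in untreated KH cells and 1.44 and 1.36 TPM at 144 h, and 15.7 and 17.5 TPM in untreated DNMT3ABKO cells and 3.31 and 3.97 TPM at 144 h. Fabp5, a fatty acid carrier, had 39.9 and 38.0 TPM in untreated KH cells and 11.3 and 11.6 TPM at 144 h, and 31.8 and 31.6 TPM in untreated DNMT3ABKO cells and 12.2 and 13.2 TPM at 144 h.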

How the data were processed

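Total RNA of mouse ES cells was depleted of ribosomal RNA and sequenced from paired ends by the authors. The submitters' processing notes name cutadapt 2.4, STAR 2.7.3a, StringTie 2.0 and mm10 (the methods give later releases of the aligner and the quantifier), and the deposited values are TPM per gene for each of 12 libraries. ERCC spike-in RNA was added at extraction. The TPM values used here hold no spike-in rows, so levels could not be scaled to it. Each library sums to 1000000 TPM, which keeps no read depth: depth is unknown, and values carry no counting interval. Rows that repeated a gene identifier (9 to 16 per library) were summed.

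log2(TPM + 1) of 15727 genes, those averaging 1 TPM or more over the 12 libraries, was fitted with limma 3.58.1 (lmFit and eBayes with trend, R 4.3.3), with a coefficient for each of 6 groups and no covariate. The methods name DESeq2, which needs counts and was not used. There were 12 contrasts, 1 of them added after values were seen. p-values were adjusted by the Benjamini-Hochberg procedure over all genes tested. With 2 libraries a group, an exact permutation test cannot pass the threshold. The fit was tested on simulated data. The members, pathway lists and markers were chosen with earlier results of these data known. Values per library are given for members whose response differed between lines and for the strongest calls of each role class at 144 h, with other members by range or added for their role. Pathway genes named had a called change of at least 1 on the log2 scale in a response or between lines. Alternatives were a pseudocount of 0.1 TPM, no minimum level, median-ratio scaling, scaling to nuclear protein-coding genes, only the groups compared, the replicate number as a block, leaving out each library in turn, and a called change of at least 1 (absolute, log2). Promoter windows came from RefSeq (GRCm38.p6). Python 3.11.15, pandas 2.3.3, NumPy 2.4.6 and matplotlib 3.10.9 were used.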

Additional observations from a re-analysis of the deposited data

Results flagged for a closer look

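Differences between the lines in the response to INK128, from limma's contrast of DNMT3ABKO minus KH changes on the log2(TPM + 1) scale, drew attention to 15 values in 9 members. At 144 h against 0 h they were Fads2 (-1.61), Scd1 (-0.95), Scd2 (-0.89), Eci2 (-0.65), Echs1 (-0.48), Fasn (-0.45) and Slc25a20 (1.14). At 72 h against 0 h they were Fads2 (-0.89), Cpt1c (-0.62), Etfb (-0.61) and Slc25a20 (0.50). In the step from 72 to 144 h, compared after values were seen, they were Scd2 (-0.77), Fads2 (-0.72), Fasn (-0.47) and Slc25a20 (0.63). Untreated DNMT3ABKO replicates differed more (SD 0.272 on the log2 scale over genes tested) than those of the other 5 groups (0.133 to 0.176), and Slc25a20 had 23.3 and 26.3 TPM in them beside 23.9 and 26.2 TPM in untreated KH cells. Nuclear protein-coding genes made up 60.5% and 66.9% of TPM in untreated DNMT3ABKO replicates 1 and 2, and 63.6% and 68.1% in untreated KH replicates. Treated libraries had 64.7% to 66.7%. Fads2, Scd2, Echs1 and Slc25a20 held at 144 h in all 12 fits that left out 1 library. With 2 libraries a group, single libraries were not tested as outliers.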

How the results depend on the processing

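No call on a member changed sign under any alternative run. The median of all genes shifted by -0.12 in DNMT3ABKO cells at 72 h under median-ratio scaling. Requiring an absolute log2 fold change of at least 1 left 4 and 5 members called at 72 and 144 h against 0 h in KH cells, 5 and 7 in DNMT3ABKO cells, 0 in the step from 72 to 144 h in either line, 0, 0 and 3 between the lines at 0, 72 and 144 h, and 0 and 2 differences in response and 0 in the late step. Median-ratio scaling gave oxidation medians of -0.12 and -0.32 at 72 and 144 h in KH cells, -0.23 and -0.32 in DNMT3ABKO cells and -0.044 for their late step, a synthesis median of -0.57 in DNMT3ABKO cells at 72 h, and 12 differences in response at 144 h, as did scaling to nuclear protein-coding genes (12), which gave 4 calls between untreated lines. With no minimum level there was 1 call between untreated lines and 2 differences in response at 72 h. With only the groups compared, calls were 18 in the DNMT3ABKO late step, 0 and 20 between the lines at 0 and 72 h, 1 and 3 for the responses at 72 and 144 h, and 11 for the difference in the late step. The cause of these shifts was not tested.

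Same-numbered libraries of a line did not deviate together (correlations of deviations of -0.10 to 0.10, none above 0.1), although the reporting summary describes parallel handling of the time points of a replicate. With the number as a replicate block, 0 members differed between untreated lines and 1 in the 72 h response, and the other counts stayed within 1.5 times the main ones.

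Leaving out each library in turn gave 12 to 25 and 17 to 26 calls at 72 and 144 h in KH cells, 21 to 24 and 23 to 26 in DNMT3ABKO cells, 4 to 19 and 6 to 16 in the late step, 0 to 10, 5 to 17 and 10 to 18 between the lines at 0, 72 and 144 h, 0 to 9 and 4 to 14 differences in response, and 2 to 8 in the late step. Synthesis medians were -0.53 to -0.29 and -0.58 to -0.39 in KH cells, -0.61 to -0.26 in DNMT3ABKO cells at 72 h, -0.27 to 0.16 and -0.33 to -0.17 between the lines at 0 and 144 h, and -0.13 to 0.10 for the 72 h response difference. Oxidation medians were -0.043 to 0.055 and -0.32 to -0.20 in KH cells, -0.10 to -0.039 and -0.35 to -0.26 in DNMT3ABKO cells, -0.15 to -0.055 in their late step, -0.076 to 0.094 between untreated lines, -0.17 to -0.053 and -0.21 to -0.022 for the response differences, and -0.023 to 0.049 for the late step difference. Read depth is unknown here, so no counting error can be given for low members such as Acss2, Acacb and Cpt2.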
